A study of Mus musculus with 7 samples.

Results

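Open chromatin was described at 10 genes of the FGF pathway, of 21000 coding genes in all, in cells sorted from the heart region of E9.5 mouse embryos. The genes were chosen by name: the ligands Fgf3, Fgf8, Fgf9 and Fgf10, the receptors Fgfr1 and Fgfr2, and Spry1, Spry2, Dusp6 and Etv4, which are induced by the signal. For each gene the deposited ATAC-seq peaks were taken from 50 kb upstream to 50 kb downstream of the gene body on GRCm38, which gave 211 of the 210347 regions made by merging peaks with a q-value of at most 0.01 from the 7 libraries. Both sorted populations are represented by 2 libraries each: GFP+ (replicates 3 and 4) from Hoxb1GFP embryos, in which GFP is made where the Hoxb1 gene is active and marks the posterior second heart field, and Tomato+ (replicates 6 and 8) from Mef2c-Cre;RosatdT embryos. In the latter the Cre recombinase is driven by a second heart field element of Mef2c and switches on the tdTomato reporter for good, so Tomato also marks descendants of cells that had used the element. The cells left outside each gate form the GFP- (replicates 1 and 2) and Tomato- (replicate 7) libraries. All embryos were E9.5, and more than 3 embryos of a genotype were pooled per sort. The study's methods also use the name Hoxb1- for its Hoxb1 knock-in alleles, of which Hoxb1GFP is one, and the zygosity of the sorted embryos is not given in the sources used here. Between GFP+ and Tomato+ the population, the mouse line and the Hoxb1GFP allele cannot be told apart, since each population comes from its own line.

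FGF ligands are secreted proteins that bind receptor tyrosine kinases and activate the RAS and MAP kinase cascade. In the second heart field, the progenitor pool that adds muscle to both poles of the heart tube, Fgf8 and Fgf10 are known as signals for proliferation and deployment, and Fgfr1 and Fgfr2 as the receptors that read them. The response is limited by genes that the signal itself induces. Spry1 and Spry2 encode Sprouty proteins that block the cascade, Dusp6 encodes a phosphatase that removes the activating phosphates from ERK, and Etv4 encodes an ETS transcription factor of the response.

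The DNA under 6 of the peaks is printed first, because the results below turn on it. The sequences come from the RefSeq assembly GRCm38.p6 and are written 5' to 3', the promoters on the strand of the gene and the distal regions on the plus strand. Capitals mark exact matches, on either strand, to 8 searched motifs: CCGGAA for ETS, TGATNNAT for HOX-PBX, TGACAG for MEIS, GGAATG for TEAD, AGATAA for GATA factors, AGGTGTG for T-box, CTTTGAT for TCF/LEF and a pair of AGGTCA spaced by 5 bases (DR5, read by retinoic acid receptors). The motifs can share bases where they overlap. The first 2 are the 250 bases before the start sites of Fgf10 and Dusp6, whose promoter peaks were among the most enriched of the group.

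Fgf10 promoter, chr13:118714449-118714698 (plus strand): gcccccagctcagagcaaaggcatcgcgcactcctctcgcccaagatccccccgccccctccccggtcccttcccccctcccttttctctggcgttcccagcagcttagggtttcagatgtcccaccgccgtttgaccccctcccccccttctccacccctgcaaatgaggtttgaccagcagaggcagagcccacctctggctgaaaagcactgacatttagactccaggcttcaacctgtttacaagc

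Dusp6 promoter, chr10:99262981-99263230 (plus strand): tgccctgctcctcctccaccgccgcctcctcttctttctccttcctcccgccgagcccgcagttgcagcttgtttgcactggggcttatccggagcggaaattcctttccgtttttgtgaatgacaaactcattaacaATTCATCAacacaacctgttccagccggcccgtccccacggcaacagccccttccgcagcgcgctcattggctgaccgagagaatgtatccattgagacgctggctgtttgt

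The next 3 are 300 bases around the summits of the regions that differed between libraries at Fgf9, Fgfr1 and Fgf3. They lie 43160 bp upstream of the Fgf9 start site, 6871 bp upstream of that of Fgfr1 and 41971 bp downstream of that of Fgf3, each between genes. The last is the region 33744 bp upstream of the Dusp6 start site, also between genes.

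Fgf9 distal, chr14:58029376-58029675 (plus strand): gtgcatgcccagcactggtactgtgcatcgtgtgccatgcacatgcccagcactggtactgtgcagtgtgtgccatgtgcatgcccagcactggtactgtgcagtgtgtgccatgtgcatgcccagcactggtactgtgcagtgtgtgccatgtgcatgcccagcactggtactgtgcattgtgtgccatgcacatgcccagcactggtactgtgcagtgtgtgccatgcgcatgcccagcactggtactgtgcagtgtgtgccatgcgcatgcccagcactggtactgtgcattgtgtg

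Fgfr1 distal, chr8:25511738-25512037 (plus strand): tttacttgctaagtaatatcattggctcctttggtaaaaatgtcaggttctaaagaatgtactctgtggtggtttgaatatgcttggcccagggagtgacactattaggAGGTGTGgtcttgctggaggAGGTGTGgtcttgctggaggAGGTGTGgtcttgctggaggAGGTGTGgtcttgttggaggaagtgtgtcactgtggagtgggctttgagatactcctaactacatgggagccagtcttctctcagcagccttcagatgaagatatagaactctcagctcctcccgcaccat

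Fgf3 distal, chr7:144880433-144880732 (plus strand): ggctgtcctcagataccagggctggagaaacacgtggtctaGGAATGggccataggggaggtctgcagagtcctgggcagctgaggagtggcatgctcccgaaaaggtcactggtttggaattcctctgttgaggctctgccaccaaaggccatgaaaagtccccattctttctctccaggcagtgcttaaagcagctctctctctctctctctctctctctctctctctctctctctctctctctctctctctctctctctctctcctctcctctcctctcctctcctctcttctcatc

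Dusp6 distal, chr10:99229337-99229636 (plus strand): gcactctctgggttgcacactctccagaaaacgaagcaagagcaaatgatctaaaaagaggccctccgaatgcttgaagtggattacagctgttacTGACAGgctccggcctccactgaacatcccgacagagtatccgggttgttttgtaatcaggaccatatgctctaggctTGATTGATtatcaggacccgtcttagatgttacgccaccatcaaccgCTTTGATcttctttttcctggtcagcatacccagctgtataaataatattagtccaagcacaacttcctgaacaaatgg

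The Fgf9 sequence is a tandem repeat: 95.4% of its bases equal the base 38 positions further on. In the Fgfr1 sequence AGGTGTG recurs 4 times at intervals of 20 bases, and 78.3% of the window is marked as repeat in the assembly. A run of alternating C and T fills the downstream part of the Fgf3 window, of which 49.3% is marked as repeat. The Dusp6 distal sequence is 0.333% repeat and holds 1 MEIS, 1 HOX-PBX and 1 TCF/LEF match. The Fgf10 promoter sequence holds none of the 8 motifs, and the Dusp6 promoter sequence holds 1 HOX-PBX match.

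The 7 peak lists came from an estimated 52300000 to 93100000 tags, worked out from the lowest background level in each list, and hold 187914 to 291287 peaks, of which 64306 to 77746 have a q-value of at most 0.01. Over the 34032 regions with a peak in every library, Pearson's r of log2 fold enrichment was 0.88 for the GFP+ pair, 0.888 for the GFP- pair and 0.841 for the Tomato+ pair, while libraries of different groups reached 0.825 to 0.901. Tomato+ replicate 6 stood apart, with r of 0.825 to 0.853 to all others, whereas Tomato+ replicate 8 correlated best with Tomato- replicate 7. Tomato+ replicate 6 also had the fewest estimated tags, 52300000, and its run name holds the letters YFP, although its label names the Mef2c-Cre line. The part of depth or of sample identity was not tested. Marker promoters did not separate the gates: 3 to 5 of the 6 posterior and 3 to 5 of the 6 anterior second heart field markers had a peak with q of at most 0.01 in each library, and Tbx5, a posterior marker, was without a promoter peak in GFP+ replicate 4 and in all 3 libraries of the Mef2c-Cre line. Of the blood markers Gata1, Hbb-bh1 and Klf1, 0 of 3 passed in every library but Tomato- replicate 7, where 1 did. Neural tube markers passed at 2 to 3 of 3 in every library, endothelial markers at 1 to 3 of 3 and surface ectoderm markers at 0 to 1 of 3. Of the endoderm markers 0 of 3 passed in Tomato+ replicate 6, 3 of 3 in Tomato+ replicate 8 and 1 to 2 of 3 in the others. Of the neural crest markers 1 of 3 passed in both GFP+ libraries and in Tomato+ replicate 8, and 0 of 3 in Tomato+ replicate 6 and all negative-gate libraries. The part of cell mixture in the results below was not tested.

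At the promoters, 6 of the 10 genes had a peak with q of at most 0.01 in all 7 libraries, against 53% of all 21000 coding genes. The promoter was taken from 1000 bp upstream to 100 bp downstream of each curated start site. These 6 were Fgf10, Fgfr1 and the 4 induced genes Spry1, Spry2, Dusp6 and Etv4. Fgf9 had a promoter peak in all 7 libraries but reached this q in 5, Fgf3 and Fgf8 had peaks in 5 libraries each, and no promoter peak was listed for Fgfr2. All values that follow are MACS2 fold enrichments, the read pileup at the summit over the local background, with a small constant added to both.

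Among the chosen ligands Fgf3, Fgf8, Fgf9 and Fgf10, Fgf10 had the most enriched promoter. In the order of the replicates named in the opening, its fold enrichment was 7.86 and 5.54 in GFP+, 4.66 and 5.30 in Tomato+, 5.26 and 5.58 in GFP- and 4.76 in the single Tomato- library. Both GFP+ libraries therefore lay above both Tomato+ libraries, and GFP- replicate 2 lay between the GFP+ values. At Fgf9, a ligand made mainly by epithelia that signals to mesenchyme, the values were 2.44 and 4.03 in GFP+, 3.20 and 3.58 in Tomato+, 2.62 and 3.50 in GFP- and 3.96 in Tomato-. The GFP+ pair spanned the Tomato+ pair, and q was at most 0.01 in 5 of the 7 libraries.

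The 2 remaining ligands were weakly enriched. Fgf3, known for its role in inner ear induction and in the arterial pole of the heart together with Fgf10, had a promoter peak in 5 libraries: 3.46 in GFP+ replicate 4, 4.78 and 2.71 in the Tomato+ libraries, 3.20 in GFP- replicate 1 and 2.26 in Tomato-. No peak in the window was listed in GFP+ replicate 3 or GFP- replicate 2, although the latter had one of 2.92 just inside the gene. Fgf8, the ligand best known in the anterior second heart field and pharyngeal region, had promoter peaks of 2.90 and 2.29 in GFP+, 2.17 and 2.64 in GFP- and 2.51 in Tomato-, and none in the window in either Tomato+ library. Tomato+ replicate 8 had a peak of 2.41 just inside the gene, beyond the window. The GFP+ replicate 3 peak of 2.90 also lay inside the gene and overlapped only the edge of the window. The other values are of peaks upstream of the start site, so the values are not all of the same peak. Only the peaks of GFP+ replicate 3 and Tomato- replicate 7 reached q of 0.01, with a −log10 q of 2.51 and 2.44, and their positions in the 7 lists, by fold enrichment from the top, were between 112763 and 173274 where a peak was listed. Near that end of a list a missing peak is a peak below the calling limit of p 0.01, so it does not show that the promoter was closed in the Tomato+ cells.

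The receptors differed in where the peak lay. At Fgfr1 the promoter values were 4.401 and 4.201 in GFP+, 3.26 and 4.07 in Tomato+, 4.66 and 5.04 in GFP- and 5.32 in Tomato-. The GFP+ libraries lay above the Tomato+ libraries, and all 3 negative-gate libraries lay above all 4 positive-gate ones, a split found at 1.97% of all regions with a peak in every library and at 2 of the 38 near the FGF genes. The other was in intron 1 of Fgf9, 3726 bp inside the gene, with 3.13 to 3.39 in the positive gates and 3.75 to 4.21 in the negative ones. Fgfr2 had no peak in the promoter window in any library, but a region of 846 bp, chr7:130265702-130266547, began 261 bp inside the gene and covered part of the 5' UTR in exon 1. Its fold enrichment was 8.08 and 6.03 in GFP+, 7.54 and 4.65 in Tomato+, 5.15 and 7.38 in GFP- and 5.01 in Tomato-, with q of at most 0.01 in all 7. The start of Fgfr2 was thus open in all 7 libraries, downstream of the annotated start site.

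Among the induced genes, Dusp6 had the promoter with the narrowest range. It gave 7.47 and 6.39 in GFP+, 5.54 and 6.94 in Tomato+, 7.22 and 5.68 in GFP- and 6.24 in Tomato-, and its position was between 8293 and 15663 in every list. Spry2 gave 5.34 and 5.20 in GFP+, 4.98 and 8.25 in Tomato+, 6.03 and 5.59 in GFP- and 6.32 in Tomato-. The high Spry2 value belongs to 1 Tomato+ library, with the other below both GFP+ values, so the groups overlapped. Spry1 gave 3.58 and 5.72 in GFP+, 4.42 and 4.36 in Tomato+, 3.08 and 7.73 in GFP- and 4.99 in Tomato-. The GFP- replicates enclosed every other Spry1 value, which makes replicate spread here as wide as the whole range. Etv4 gave 5.13 and 3.91 in GFP+, 5.55 and 3.72 in Tomato+, 2.701 and 4.14 in GFP- and 4.44 in Tomato-, again with groups that overlapped.

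**Figure D1:**
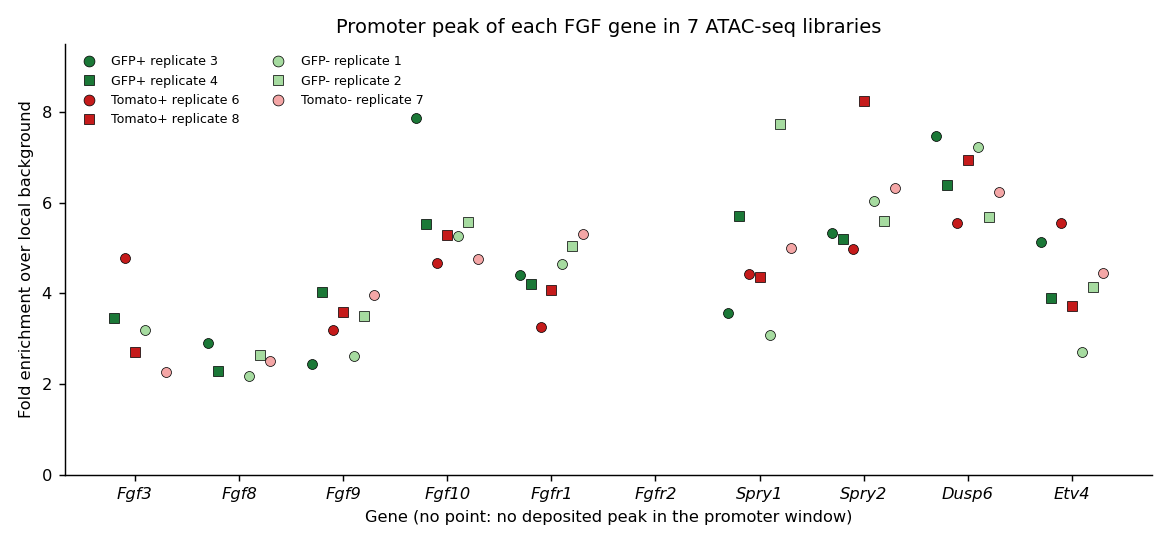
MACS2 fold enrichment (y axis) of the promoter peak of each of the 10 genes (x axis) in each library. Green points are libraries of the Hoxb1GFP line and red points libraries of the Mef2c-Cre line, dark for the positive gate and pale for the negative gate, and a library without a peak has no point. Fgf10 and Fgfr1 are the genes with both dark green points above both dark red ones, and Fgfr2 has no point.

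Positions by fold enrichment from the top of each list were compared between GFP+ and Tomato+, since fold enrichment is set against a background estimated within each library. Of 7 promoters with a peak in all 4 libraries, both GFP+ positions were ahead of both Tomato+ positions at 2, Fgf10 and Fgfr1, against 26.8% of 13123 coding promoters. At 0 of 7 were both Tomato+ positions ahead, against 10.1%. Fgf10 lay at positions 7445 and 14903 in GFP+ and at 22489 and 17816 in Tomato+, and Fgfr1 at 24476 and 25854 in GFP+ and at 83462 and 28646 in Tomato+. Both shares are near those of all promoters or rest on too few genes to read apart from them, and an exact permutation test of 2 against 2 libraries cannot go below 0.333. Ranked by q-value, Spry2 was added as the gene with both Tomato+ positions ahead. Without Tomato+ replicate 6, Etv4 was also ahead in GFP+ and Spry2 was ahead in Tomato+. Fgf10 and Fgfr1, ahead with all 4 libraries, stay ahead by definition when a library is left out.

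Promoters of 45 other FGF pathway genes were measured in the same way. Of these, 33 had a peak with q of at most 0.01 in all 7 libraries, against 53% of all coding genes: 9 of 18 ligands, 10 of 12 receptors and cofactors and 14 of 15 feedback and ETS genes. The difference between these lists was not tested. Fgf6, Fgf7 and Fgf17 and the coreceptor gene Klb passed in no library. Fgf11 passed in 1 library, Fgf16 and Fgf21 in 2, Fgf4 in 3 and Fgf1 and Fgf20 in 4. The GFP+ positions were ahead at 12 of 37 ranked promoters and the Tomato+ positions at 3, namely Frs3, Spry4 and Dusp9, against 26.8% and 10.1% of all coding promoters, so these counts are near the background.

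By the ratio of the nearest Tomato+ to GFP+ positions, 1.84, the promoter of Fgfr4, a further FGF receptor, came first, with fold enrichments of 5.64 and 5.13 in GFP+, 4.11 and 3.15 in Tomato+, 3.32 and 4.55 in GFP- and 3.61 in Tomato-. Its GFP+ libraries were above all 5 others, a split whose share over all promoters was not counted. Dusp4, a nuclear phosphatase for MAP kinases, gave 4.77 and 5.36 in GFP+, 3.51 and 3.73 in Tomato+, 4.49 and 3.60 in GFP- and 4.85 in Tomato-, so that its Tomato- value lay between the GFP+ ones. Ptpn11, which encodes the phosphatase SHP2 that carries the signal from the receptor to RAS, gave 7.95 and 9.67 in GFP+, 5.55 and 7.24 in Tomato+, 4.87 and 5.10 in GFP- and 6.60 in Tomato-. Gab1, a docking protein of the same step, gave 8.82 in each GFP+ library, 7.16 and 8.11 in Tomato+, 8.13 and 6.62 in GFP- and 9.48 in Tomato-. The Tomato- library was thus highest at Gab1 but not at Ptpn11. At Fgf1 and Elk1, an ETS factor phosphorylated by ERK, the GFP+ positions were also ahead. Fgf1 gave 3.66 and 3.71 in GFP+, 3.32 and 2.99 in Tomato+, 2.74 in GFP- replicate 2 and 3.43 in Tomato-, with no peak in GFP- replicate 1. Elk1 gave 9.13 and 12.1 in GFP+, 7.21 and 8.61 in Tomato+, 7.80 and 10.6 in GFP- and 7.77 in Tomato-, so that a GFP- library lay between the GFP+ ones. At Fgfrl1, a receptor without a kinase domain, the values were 8.73 and 8.50 in GFP+, 5.74 and 8.11 in Tomato+, 6.74 and 7.19 in GFP- and 7.09 in Tomato-.

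**Figure D2:**
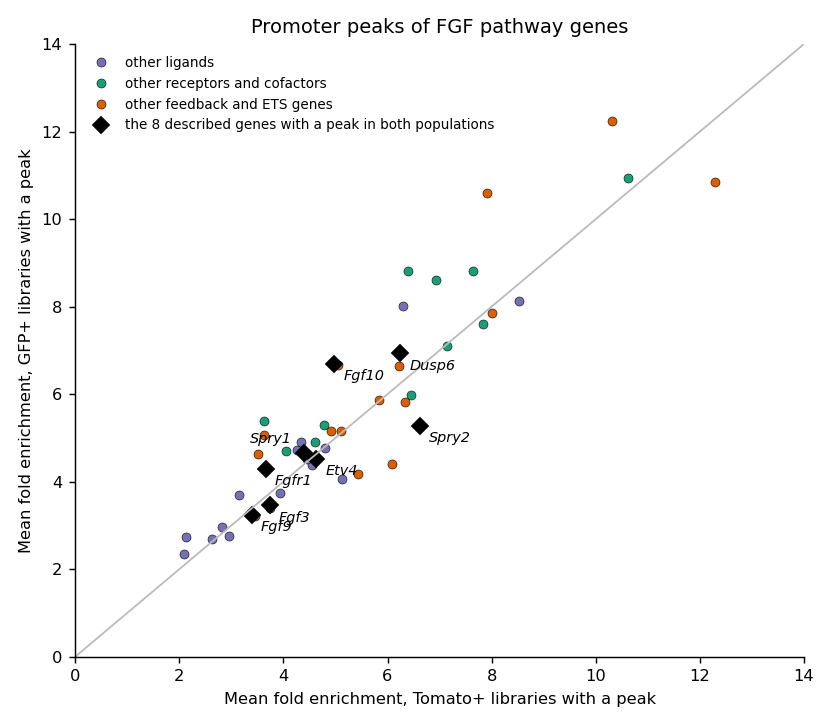
Mean promoter fold enrichment in the Tomato+ libraries with a peak (x axis) against that in the GFP+ libraries with a peak (y axis), with the line of equal values. Black diamonds are 8 of the 10 genes (Fgf8 had no peak in Tomato+ and Fgfr2 none at all), coloured points are the other pathway genes, and Fgf10 lies furthest above the line among the diamonds, at 6.70 against 4.98.

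The surroundings of the 10 genes held 211 merged regions, 12 at their own promoters, 9 at promoters of other genes and 190 distal. A peak was present in all 7 libraries at 38 of them (18%), against 16.2% of all regions, and in 1 library at 69 (32.7%), against 35.4%. The density of peaks with q of at most 0.01 differed between the genes. It was highest at Etv4, with 9.15 ± 2.59 per 100 kb (SD over 7 libraries), and at Fgfr1, with 8.83 ± 2.19, above 88.5% and 87% of coding genes. Lowest was Fgf10, with 1.45 ± 0.637, above 14.4% of genes. Fgf10 thus combined a promoter open in all libraries with few peaks over its long gene body and flanks, and none of its 6 distal regions had a peak in all 7 libraries.

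For each gene the distal region with q of at most 0.01 in the most libraries, and among those the best median position, was taken as the leading one. At Etv4 it lay 45122 bp downstream, in intron 7 of the neighbouring helicase gene Dhx8, with 7.33 and 4.96 in GFP+, 5.54 and 6.87 in Tomato+, 5.25 and 5.93 in GFP- and 6.52 in Tomato-. Its sequence is a tandem repeat in which 89% of bases equal the base 54 positions on. At Fgfr1 it lay 24857 bp inside the gene, in intron 2, with 5.41 and 6.47 in GFP+, 6.55 and 5.37 in Tomato+, 5.45 and 3.25 in GFP- and 5.54 in Tomato-. At Spry2 it lay 2197 bp upstream, with 5.56 and 4.12 in GFP+, 3.56 and 3.49 in Tomato+, 4.98 and 4.58 in GFP- and 4.31 in Tomato-. Every other library was there above the Tomato+ pair, a split whose share over all regions was not counted. At Dusp6 it lay 22709 bp downstream, with 3.89 and 6.23 in GFP+, 4.68 and 2.67 in Tomato+, 4.18 and 5.28 in GFP- and 3.15 in Tomato-. The GFP+ and Tomato+ values overlapped there, and both GFP- values lay between the GFP+ ones.

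At Fgf9, Fgfr2 and Spry1 the leading regions are the ones at 43160 bp, at exon 1 and at 27040 bp that are described with the comparisons. The distal regions of Fgf8, Fgf10 and Fgf3 were less regular. At Fgf8 the leading region, 25235 bp downstream, had no peak in GFP+ replicate 3 and gave 3.01 in GFP+ replicate 4, 3.81 and 3.27 in Tomato+, 3.57 and 2.91 in GFP- and 5.83 in Tomato-. At Fgf10 the leading region, in intron 1 at 44516 bp, gave 2.41 and 3.002 in GFP+, 4.27 in Tomato+ replicate 6 and 4.78 in GFP- replicate 1, with no peak in the other 3 libraries. At Fgf3 it was the region described next.

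**Figure D3:**
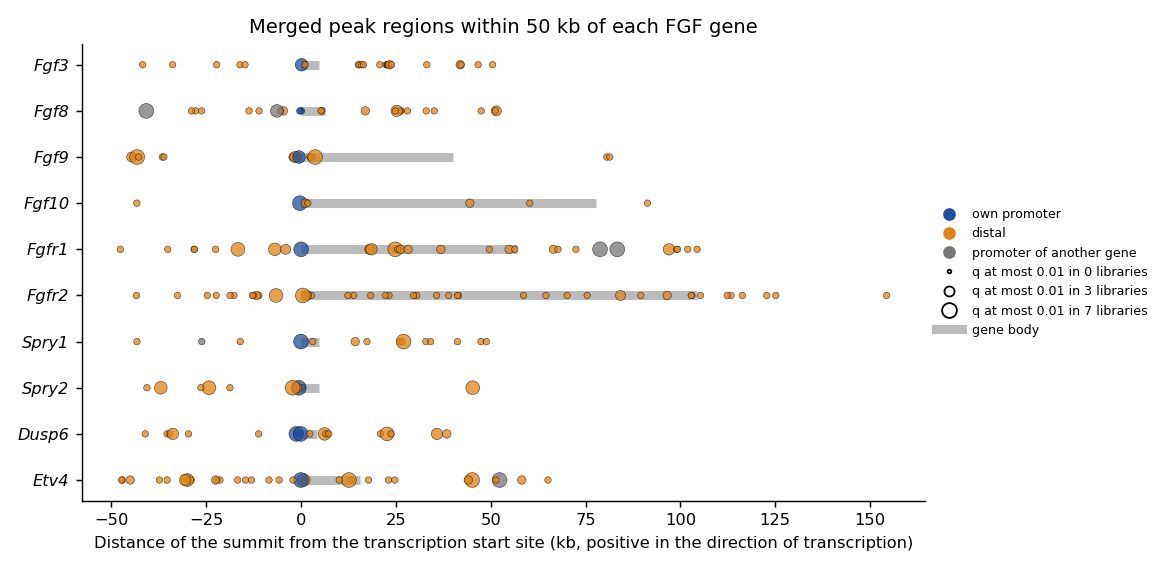
Merged regions of each gene by the distance of the summit from the start site in kb (x axis, positive in the direction of transcription), with the gene body as a grey bar. Point area grows with the number of libraries in which q was at most 0.01, blue marks the gene's own promoter, orange distal regions and grey promoters of other genes. The sparse row of Fgf10, with 7 regions, and the dense rows of Etv4 and Fgfr1, with 31 and 29, can be compared.

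Presence in 1 population and absence from the other was rare. A region with q of at most 0.01 in both GFP+ libraries and no peak in either Tomato+ library was found at 1 of 211 regions, against 0.518% of all regions, and the reverse at 1 of 211, against 0.397%. These shares are near the background. The GFP+ region is the repeat 6871 bp upstream of Fgfr1 printed above, with 3.56 and 5.33 in GFP+. It was also present at 4.12 and 5.22 in GFP- and at 3.97 in Tomato-, so that it was missing from the Tomato+ libraries and not particular to GFP+ cells. Under the peaks of the Fgfr1 window the local background was 1.99 times the genome average in Tomato+ replicate 6, and 1.10 to 1.30 times in the others. The part of that background in the missing peak was not tested. The Tomato+ region lies 41971 bp downstream of Fgf3, beside the run of alternating C and T, with 3.62 and 3.43 in Tomato+ and 2.81 in GFP- replicate 1. Under q of at most 0.0001 neither region remained.

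Differences in fold enrichment were tested with limma over the 34032 regions with a peak in all 7 libraries, of which 38 lie near the FGF genes. These 38 had to be open in all groups to be tested, so presence in them is given by the selection. For GFP+ minus Tomato+, 50 of all regions passed an adjusted p of 0.1 (Benjamini-Hochberg), or 0.147%, 18 higher and 32 lower in GFP+, and 0 of the 38 did. The lowest adjusted p among the 38 was 0.37, and 4 of them (10.5%) had an unadjusted p under 0.05, against 9.22% of all regions. GFP+ minus GFP- and Tomato+ minus Tomato- gave 0 calls over all regions in limma (0% in both), with 2139 and 1139 regions at an unadjusted p under 0.05, and 2 and 1 of the 38. The 0 calls at the FGF genes held in every limma setting tried. A test of whether the gate effect differed between the lines gave 0 of 34032 regions in limma (1391 with an unadjusted p under 0.05) and 1 of the 38 with an unadjusted p under 0.05, a region of Spry2 24232 bp upstream of its start site. The median difference over the 38 was 0.10 on the log2 scale for GFP+ minus Tomato+, against 0.01 over all regions, with a median SE of 0.26 for a single region.

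The fit took the highest peak of each merged region, which at Spry1 reaches beyond the promoter window. At the promoters, the log2 difference GFP+ minus Tomato+ was 0.40 (SE 0.25, limma adjusted p = 0.676) for the merged region of Fgf10 and 0.26 (SE 0.26, adjusted p = 0.816) for that of Fgfr1. The remaining promoter regions lay between -0.26 at Spry2 (SE 0.26) and 0.18 at Dusp6 (SE 0.24). All of these lay within 2 SE of 0. Single libraries set their size: the Fgf10 difference was 0.16 without GFP+ replicate 3 and 0.65 without GFP+ replicate 4, and that of Fgfr1 was 0.09 without Tomato+ replicate 6 and 0.43 without Tomato+ replicate 8. On the pileup, quantile normalised between libraries like the fold enrichment, they were 0.69 and 0.12. For Tomato+ minus Tomato-, Fgfr1 had -0.56 (SE 0.32) in the same fit, where the lone Tomato- library is assumed to vary like the others.

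**Figure D4:**
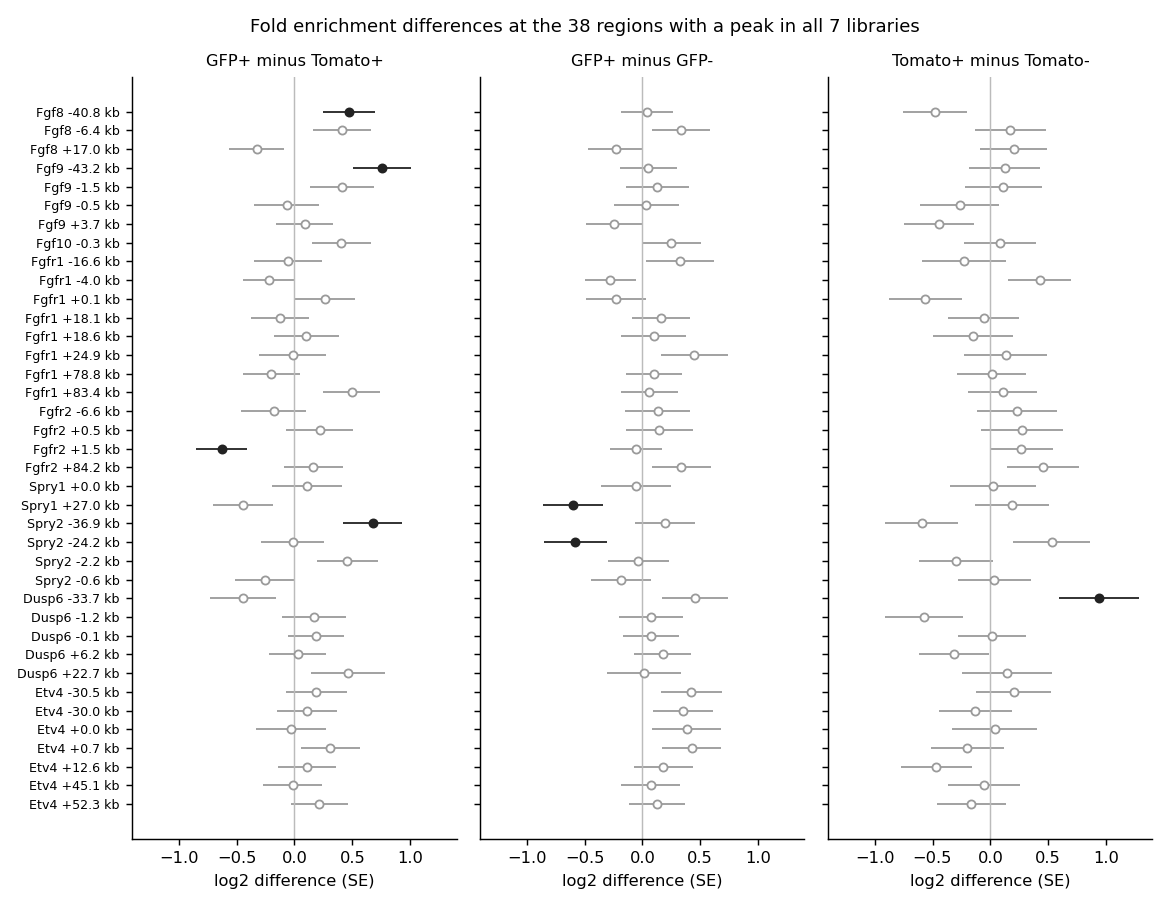
Log2 difference in fold enrichment (x axis, bars 1 SE from limma) at the 38 regions with a peak in all 7 libraries (y axis, by gene and distance from its start site), for the 3 comparisons. Filled points have an unadjusted p under 0.05, 4, 2 and 1 of 38 from left to right, and no point passed an adjusted p of 0.1.

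The regions at the extremes of these comparisons, chosen after their values were seen, are given as values, as none passed the adjustment. The highest GFP+ minus Tomato+ difference was 0.76 (SE 0.25, limma adjusted p = 0.37) at the tandem repeat 43160 bp upstream of Fgf9. Its values were 7.23 and 9.28 in GFP+, 4.60 and 5.38 in Tomato+, 6.59 and 9.12 in GFP- and 4.53 in Tomato-. All 4 libraries of the Hoxb1GFP line were above all 3 of the Mef2c-Cre line, whichever gate they came from, and GFP+ minus GFP- was 0.05 (SE 0.25). Such a split by line, in that direction, was present at 2.99% of all tested regions and at 2 of the 38. The other was the promoter of Nsd3, 83361 bp downstream of the Fgfr1 start site, with 6.41 to 7.35 in the Hoxb1GFP line and 4.34 to 6.09 in the Mef2c-Cre line. In the Fgf9 window the local background was 1.92 times the genome average in Tomato+ replicate 6 and 1.02 to 1.51 times in the others. The difference at the repeat was 0.93 on the quantile normalised pileup, and 0.67 in fold enrichment without Tomato+ replicate 6. The part of the repeat itself was not tested, and line and allele cannot be told apart.

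The opposite split by line, at 5.67% of all tested regions, was present at 1 of the 38, in intron 1 of Fgfr2, 1518 bp inside the gene. Its values were 2.37 and 2.27 in GFP+, 3.30 and 3.96 in Tomato+, 2.596 and 2.14 in GFP- and 2.89 in Tomato-, and GFP+ minus Tomato+ was -0.63 (SE 0.22, limma adjusted p = 0.406). At 36927 bp upstream of Spry2 the values were 5.12 and 4.504 in GFP+, 2.96 and 3.11 in Tomato+, 3.78 and 4.34 in GFP- and 4.53 in Tomato-, a difference of 0.68 (SE 0.26, limma adjusted p = 0.435). Here the Tomato+ libraries alone were low, and 92.7% of the bases around the summit are marked as repeat. At 27040 bp downstream of Spry1 the GFP+ values, 3.92 and 4.0, were below 6.04 and 4.65 in Tomato+, 5.32 and 6.24 in GFP- and 4.72 in Tomato-, and GFP+ minus GFP- was -0.60 (SE 0.26, limma adjusted p = 0.755). The region 24232 bp upstream of Spry2 gave 3.49 and 4.25 in GFP+, 3.38 and 4.53 in Tomato+, 6.03 and 5.06 in GFP- and 2.59 in Tomato-, so that both GFP- libraries were above all others. The shares of all regions with the Tomato+, GFP+ or GFP- libraries alone set apart in these ways were not counted. The remaining region with an unadjusted p under 0.05 was the promoter of Oga in the Fgf8 window, with 8.96 and 8.06 in GFP+, 5.89 and 6.55 in Tomato+, 6.95 and 9.39 in GFP- and 8.99 in Tomato-.

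Near Dusp6, 2 distal regions had higher values in both positive gates. At 33744 bp upstream, the unrepeated sequence with the HOX-PBX, MEIS and TCF/LEF matches, fold enrichment was 3.52 and 4.70 in GFP+ and 6.52 and 4.53 in Tomato+, against 2.77 and 2.99 in GFP- and 2.81 in Tomato-. All 4 positive-gate libraries were above all 3 negative-gate ones, as at 3.56% of all tested regions and 1 of the 38. Tomato+ minus Tomato- was 0.94 (SE 0.35, limma adjusted p = 1) and GFP+ minus GFP- 0.45 (SE 0.28, adjusted p = 0.863). At 35844 bp downstream the values were 3.92 and 3.49 in GFP+, 4.58 and 3.68 in Tomato+, 2.44 in GFP- replicate 2 and 2.16 in Tomato-, with no peak in GFP- replicate 1. These were the 2 regions of 211 with q of at most 0.01 in all 4 positive-gate libraries and in no negative-gate library, a pattern of 0.0894% of all regions. The reverse pattern, at 0.164% of all regions, was found at 0 of 211. Both patterns were looked for after the values had been seen, so the counts are given as a description.

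**Figure D5:**
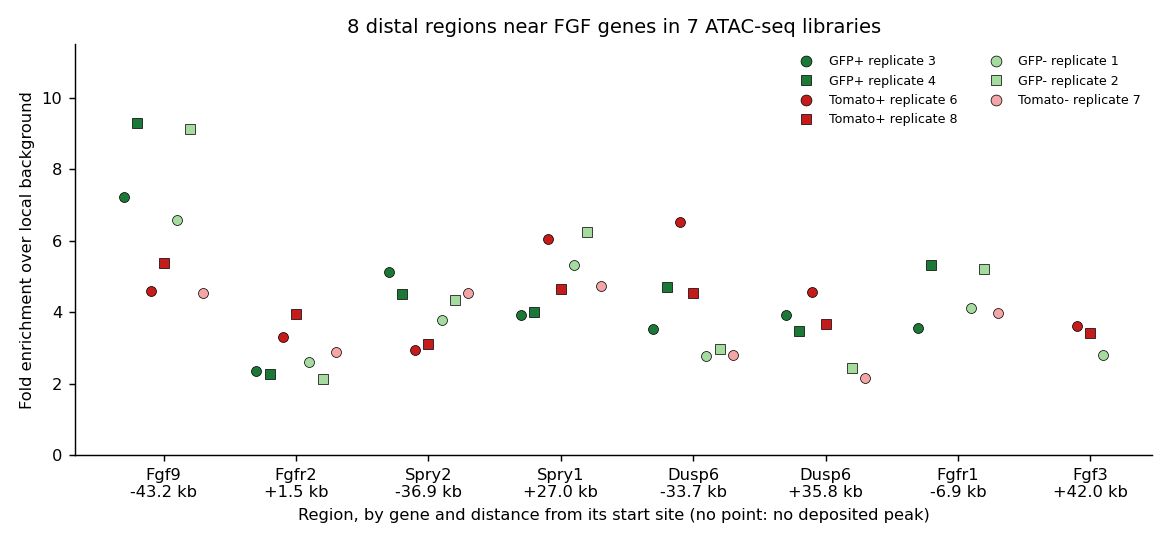
MACS2 fold enrichment (y axis) in each library at 8 distal regions named by gene and distance from its start site (x axis), coloured as in the promoter plot, with no point where no peak was listed. All green points are above all red ones at the Fgf9 repeat, and all dark points are above all pale ones at both Dusp6 regions.

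Motif matches were counted in 300 bases around the start sites of the 7 genes with an entry in the RefSeq promoter table (250 bases before and 50 after), and around the summits of the 25 distal regions with a peak in all 7 libraries. Distal means outside the promoter windows, so the 25 include regions close to a start site, such as those 497 bp inside Fgfr2 and 706 bp inside Etv4. Entries for Fgf8, Fgfr1 and Etv4 were not used here. Each of the 7 genes has 1 start site in that table, while a coding gene counted with a match at any of its listed start sites. A gene with several start sites thus had more sequence searched, which can raise the shares of all genes. ETS matches were found at 1 of 7 promoters (Spry2), against 20.9% of 17492 coding genes, and HOX-PBX matches at 2 of 7 (Fgfr2 and Dusp6), against 8.72%. TEAD matches were found at Fgf3 and Spry1 (15.5% of genes), GATA matches at Fgf3 and Fgf9 (11.2%) and a MEIS match at Spry1 (21.2%). T-box, TCF/LEF and DR5 matches were in none of the 7, against 6.19%, 3.74% and 0.00572% of genes. Among the 25 distal regions, 5 held MEIS, 4 TEAD, 1 ETS, 1 HOX-PBX and 1 GATA, against 15.5%, 14.7%, 7.2%, 10.6% and 8.36% of 21275 distal regions with a peak in all libraries. T-box, TCF/LEF and DR5 matches were in 0 of 25, against 5.82%, 3.42% and 0.0188%. The counted distal windows are centred on the median summit of all 7 libraries, the printed ones on that of the libraries with q of at most 0.01. At the Dusp6 region 33744 bp upstream the centres lie 97 bp apart, and its TCF/LEF match is in the printed window but not in the counted one. In the same way a HOX-PBX match 30516 bp from the Etv4 start site was not counted. A match is a string of letters, not a bound site.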

How the data were processed

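The 10 genes and the gene lists were chosen with earlier results of these data known. Groups and replicate numbers follow the sample labels. The replicate number is the last digit of the label, which is read here as the adapter, although the labels do not spell this out. Cells of more than 3 embryos were pooled per sort. The study calls its ATAC-seq replicates biological but does not list which libraries come from separate pools, so p-values may measure in part technical spread. The run name of Tomato+ replicate 6 holds the letters YFP, and the label was followed.

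The authors aligned reads to GRCm38 with SNAP, filtered out duplicates, reads without a mate and the ENCODE blacklist, and ran MACS2 2.1.1 for narrow peaks without a control (p 0.01, shift 37, extension 73). The deposited lists give the pileup, a signal of tags over the summit that the authors did not scale to depth. Their fold enrichment is a ratio of pileup to local background, with a small constant added to both. The genome background was low, from 2.043 in Tomato+ replicate 6 to 3.633 in Tomato- replicate 7, so the constant lowers the ratio. Its part in differences between libraries was not tested. The fold enrichment was computed by the authors' MACS2 run in each library. The deposited −log10 p and −log10 q values come from the same run. Read counts, as used in the authors' DiffBind step, were not analysed here.

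Peaks with several summits were reduced to the summit with the lowest p-value. A promoter ran from 1000 bp upstream to 100 bp downstream of each curated RefSeq start site, and the peak with the highest fold enrichment there was used. Position is the order by fold enrichment in a list. Regions were merged from peaks with q of at most 0.01 that shared 1 bp, and any deposited peak in a region counted as present. Log2 fold enrichment was quantile normalised and tested with limma 3.58.1 in R 4.3.3 (trend, robust, all 7 libraries, 3 residual degrees of freedom, Benjamini-Hochberg). Fold enrichment is not a read count, so no count model was used. The limma fit was also run on simulated data with planted differences, and its recovery of them is not given here. Of 46 other pathway genes listed, 45 were matched. Named regions were the leading distal region of each gene, those present in 1 population alone and those called by limma, and other pathway genes were named for the fewest libraries or the largest ratio of nearest positions, up to 6 each with ties kept, beside the 4 that passed in no library and the 3 with Tomato+ ahead. Further regions named were chosen after their values were seen. Sequences come from RefSeq GRCm38.p6 (samtools 1.23.1), and scripts ran in Python 3.11.15 with pandas 2.3.3. Alternatives were other windows, q limits, normalisations, region definitions and left-out libraries.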

Additional observations from a re-analysis of the deposited data

How the results depend on the processing

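No paired analysis was made. The replicate numbers are read as adapters, and the labels do not say which positive-gate and negative-gate libraries came from the same sort. The limma fits treated all libraries as independent. With q of at most 0.0001, 3 of the 10 promoters in place of 6 had a peak in all 7 libraries. With q of at most 0.01 and windows of 500 bp on either side of the start site, 7 did. The median number of peaks near the 10 genes fell from 70 to 30 at the stricter q, or to 42 within 20 kb. Promoters with GFP+ and Tomato+ positions that did not overlap went from 2 to 3 when ordered by q, with Fgf10 and Fgfr1 still ahead in GFP+. When a library was left out they went to between 4 and 5. By the rule used, that count cannot fall when a library is left out. Fgf10 and Fgfr1 then had to stay ahead, so leaving out libraries was no test of them. Regions present in both GFP+ and no Tomato+ library (1) became 0 at q of at most 0.0001, 3 where only peaks with q of at most 0.01 counted as present in Tomato+, and 1 to 18 without 1 library, the 18 without GFP+ replicate 3. The reverse count (1) became 0 at the stricter q and within 20 kb, 2 with fixed windows around the summits, 5 by the looser rule of absence, and 1 to 19 without 1 library, the 19 without Tomato+ replicate 8.

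Calls by limma over all regions for GFP+ minus Tomato+ (50) became 236 on pileup, 19 with the 4 positive libraries alone, 0 without trend and robust settings, and 3 to 132 without 1 library (9 without GFP+ replicate 3, 3 without GFP+ replicate 4, 34 without Tomato+ replicate 6, 132 without Tomato+ replicate 8, 5 without either GFP- library). The split of 18 higher and 32 lower became 10 and 31 with median centring, and 171 and 65 on pileup. For GFP+ minus GFP- (0), 3 were called with fixed windows around the summits and 0 to 2 without 1 library. For Tomato+ minus Tomato- (0), 1 was called on pileup and 0 to 4 without 1 library, and leaving out the only Tomato- library could give no value. None of these calls was near the 10 genes. Promoter differences whose direction turned, on the log2 scale without 1 library, were Fgf9 (-0.44 to 0.30), Spry1 (-0.14 to 0.36), Spry2 (-0.58 to 0.057), the Dusp6 region 1208 bp upstream (-0.12 to 0.46) and Etv4 (-0.33 to 0.28). The cause was not tested beyond the smaller number of libraries.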
